A study of Mus musculus with 35 samples.

Results

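The comparison described here asked how far the difference between slow-cycling and fast-cycling cells of mouse back skin depended on the epidermal layer. It is a difference of differences, the LRC minus nLRC difference of the spinous layer (SL) minus that of the basal layer (BL), and it used 12 of the 35 samples of the series, 3 in each of 4 groups (SL LRC, SL nLRC, BL LRC and BL nLRC). The samples were chosen by their labelled layer, label class and tissue, and libraries of the same replicate number were paired. All 4 groups came from C57BL/6J mice 2 months old with the genotype K5-tTA/pTRE H2B-GFP, fed doxycycline for 2 weeks. In such mice the keratin 5 promoter drives a transactivator that switches on a histone-GFP fusion, doxycycline stops its production, and each later division dilutes the label. Label-retaining cells (LRC) kept it and the labels call them slow-cycling, and non-label-retaining cells (nLRC) had lost it and are called fast-cycling. The label therefore reports divisions since doxycycline began only in cells in which the keratin 5 promoter was or had been active, and a cell that never made the fusion would also sort as nLRC. Cells were released with trypsin, stained with antibodies that the sources used here do not name, sorted, and sequenced as total RNA. No label says whether libraries came from separate or pooled mice, so the p-values measure the spread between these samples.

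The epidermis renews itself from basal keratinocytes, which divide on the basement membrane, express keratins 5 and 14 and anchor through integrins. A cell that leaves this layer normally stops dividing and enters the spinous layer, where it makes keratins 1 and 10, reinforces its desmosomes and prepares the lipids and proteins that the granular layer above assembles into the barrier. Sebaceous glands, attached to the hair follicles, renew from their own dividing cells, which mature into lipid-filled sebocytes under the nuclear receptor PPARγ.

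The 12 libraries held 12056704 to 20560481 reads assigned to genes, and 15542 genes passed the low-count filter. Read levels below are read counts scaled to library size (CPM), and differences are on the log2 scale with their standard error (± SE). The layer markers did not follow the layer labels in all groups. Krt10, the keratin of suprabasal cells (chr11:99385254-99389364), had 10997, 11414 and 7541 CPM in the SL LRC libraries of replicates 1 to 3, but 2708, 1445 and 1602 CPM in SL nLRC, which overlapped the 1499, 2129 and 2623 CPM of BL LRC and the 1427, 1671 and 1479 CPM of BL nLRC. The summed level of 18 basal keratinocyte genes was 14307 to 22082 CPM in SL LRC and 17737 to 27134 CPM in SL nLRC, below the 41670 to 49895 CPM of all 6 basal libraries. So both spinous groups were low in basal genes, while the SL nLRC libraries carried keratin 10 near the basal level. They also carried sebocyte genes: the summed level of a list of 13 was 4246 to 8598 CPM in SL nLRC against 736 to 824 CPM in SL LRC, 316 to 499 CPM in BL LRC and 402 to 845 CPM in BL nLRC. Scd1 and Acsbg1 made up most of this sum in every library, so the sum is no measure of sebocyte content. Pparg of the same list had 2299 to 6706 reads in SL nLRC, 9 to 67 in SL LRC, 24 to 36 in BL LRC and 241 to 687 in BL nLRC. Within one replicate number, the median share of intron reads in genes with long introns was lower in SL nLRC than in the other 3 groups, at 63.3, 51.9 and 51.6% in replicates 1 to 3 against 66.5, 63.2 and 64.5% in SL LRC. The part of these 2 features of the SL nLRC libraries in the results was not tested. The layer comparison within LRC, given below for the main lists, does not contrast these libraries. They still entered the filter, the scaling and the estimate of spread of the fit it was taken from.

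The difference between LRC and nLRC was far wider in the spinous layer. Most genes of mitosis and DNA replication were lower in LRC than in nLRC in the spinous layer, while 1 of them passed the test in the basal layer. Most genes of spinous differentiation and 10 of 23 granular layer genes were higher in LRC in the spinous layer. Sebocyte genes were lower in LRC in both layers, by more in the spinous one, and most genes of cholesterol synthesis were lower in spinous LRC. In the spinous layer 3130 of 15542 genes (20.1%) were higher and 3230 (20.8%) lower in LRC (edgeR's quasi-likelihood test with the replicate number as a block, Benjamini-Hochberg adjusted p under 0.05). In the basal layer 87 (0.56%) were higher and 303 (1.95%) lower. The difference between the layers itself passed the test for 2635 genes (17%), with 1366 positive, meaning higher in LRC by more in the spinous layer (8.79%), and 1269 negative (8.16%). Without the replicate block 502 were positive and 604 negative, and with the granular layer and bulge libraries of back skin added to that fit 17 and 48.

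Nearly all of these genes were set apart by the spinous libraries. Only 390 of the 15542 genes tested passed in the basal layer, so most genes, called between layers or not, had no basal difference past the test. Of the 1366 positive genes, 1293 (94.7%) were higher in spinous LRC with no basal difference past the test, and their group mean was highest in SL LRC for 1213 (88.8%, against 31.4% of all genes tested). Of the 1269 negative genes, 1133 (89.3%) were lower in spinous LRC with no basal difference past the test, and the lowest group mean was in SL LRC for 1069 (84.2%, against 32.8% of all genes tested). Their highest mean lay in SL nLRC for 968 genes (76.3%, against 31.9% of all). The calling rule itself favours some groups, so the shares of all genes are no test of these. Positive calls favour a highest mean in SL LRC or BL nLRC, and BL nLRC was highest for 59 (4.32%). Negative calls favour a lowest mean in SL LRC or BL nLRC, and BL nLRC was lowest for 46 (3.62%). They also favour a highest mean in SL nLRC or BL LRC, and BL LRC was highest for 191 (15.1%). The median of the positive differences was 0.95, beside a median spinous difference of 1.04 and a basal one of 0.09, and the median of the negative ones was -1.23, beside -1.36 and -0.15. Over all genes tested the median between-layer difference was -0.02. Negative differences were larger, with 259 genes at 2 log2 units or more against 77 among the positive ones.

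**Figure D1:**
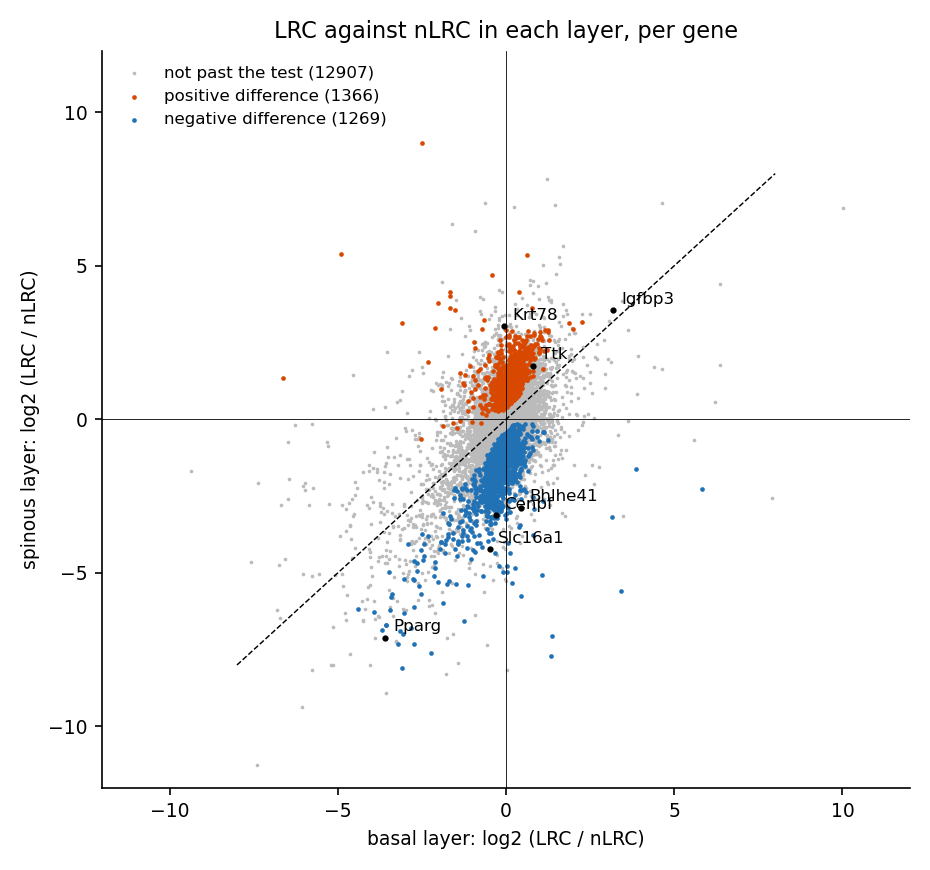
Log2 difference between LRC and nLRC for each of the 15542 genes tested, with the basal layer on the horizontal and the spinous layer on the vertical axis and the dashed line marking equal differences. Orange points (1366) had a positive and blue points (1269) a negative between-layer difference past the test, and most of them lie near 0 on the basal axis.

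Few genes passed the test in both layers, and nearly all that did shared their direction. Over all genes tested, the spinous and basal differences correlated at 0.53 (Pearson) and 0.44 (Spearman). Of the 390 genes past the test in the basal layer, 360 also passed in the spinous layer (92.3% of the basal and 5.66% of the spinous calls), 358 of them in the same direction. The between-layer test also passed for 159 of the 390. The exceptions to the shared direction were Gcnt2, a glycosyltransferase that branches poly-N-acetyllactosamine chains, and Tmem246. Gcnt2 had 179, 193 and 103 CPM in SL LRC and 144, 105 and 90.9 CPM in SL nLRC, against 113, 87.3 and 52 CPM in BL LRC and 181, 130.5 and 107 CPM in BL nLRC. LRC was the higher class in all 3 spinous pairs and the lower class in all 3 basal pairs, although the ranges of the groups overlapped, with a between-layer difference of 1.23 ± 0.20 (adjusted p = 0.00209). Tmem246 likewise rose in spinous LRC by 0.59 ± 0.22 and fell by 1.12 ± 0.22 in basal LRC, a difference of 1.71 ± 0.31 between the layers (adjusted p = 0.00357). The between-layer calls of both genes were lost without the replicate block.

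Genes that drive mitosis divided the groups by a single low one, SL LRC. Of 30 mitosis genes tested, 28 were lower and 1 higher in spinous LRC, 0 were lower and 1 higher in basal LRC, and the between-layer difference was negative for 24 and positive for 1. The list's median difference was -2.19 in the spinous layer and -0.22 in the basal layer, with a median between-layer difference of -2.02 beside -0.02 for all genes. Mki67, the proliferation antigen that coats mitotic chromosomes (chr7:135689784-135716361), had 14.2, 29.9 and 40.8 CPM in the SL LRC libraries, 156, 317 and 179 CPM in SL nLRC, 124, 112 and 133 CPM in BL LRC and 116, 153 and 151 CPM in BL nLRC. All 3 SL LRC values lay below those of the other 9 libraries, while the ranges of both basal groups overlapped. Its between-layer difference was -2.82 ± 0.37 (adjusted p = 0.00086). Cenpf, a kinetochore protein, had 2.03, 3.41 and 4.21 CPM in SL LRC, 15.7, 39.7 and 31.1 CPM in SL nLRC, 10.6, 19.7 and 18.9 CPM in BL LRC and 15, 23 and 21.1 CPM in BL nLRC, again with SL LRC alone below the rest. It had the smallest p of the list, with a difference of -2.83 ± 0.24 (adjusted p = 9.58e-05). Ccnb1, the cyclin that drives entry into mitosis, differed by -2.25 ± 0.27 and the spindle motor Kif11 by -2.23 ± 0.25. In the basal layer 5 of the 30 genes had an unadjusted p under 0.05 with lower values in LRC, and DESeq2 called 1 of them.

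Ttk, which encodes a kinase of the spindle checkpoint, was the exception among the mitosis genes and is named for that reason, after its values were seen. It had 83.7, 70.3 and 54.4 CPM in SL LRC, 22.9, 21.3 and 17.3 CPM in SL nLRC, 26.3, 21.8 and 26.2 CPM in BL LRC and 17.4, 14.8 and 11.2 CPM in BL nLRC. SL LRC stood above all other libraries and BL LRC above BL nLRC, so that Ttk rose in LRC by 1.75 ± 0.14 in the spinous and 0.80 ± 0.15 in the basal layer, with a positive difference of 0.95 ± 0.20 (adjusted p = 0.00815). The between-layer call was lost without the replicate block and without replicate number 1 or 2. On the authors' exon-based TPM the difference was 0.88 on the log2(TPM + 1) scale.

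Because the mitosis genes moved together, their promoters are shown. Many late cell cycle promoters carry the cell cycle genes homology region (CHR), which is bound by the DREAM and MuvB complexes and keeps these genes low in resting cells. Its core TTTGAA, searched on both strands from 250 bases before to 50 bases after the start in RefSeq's table (GRCm38.p6), occurred in 21 of the 27 mitosis genes with an entry (77.8%), against 14.8% of the 11083 tested genes with an entry and 20.2% of 27025 genes in the table. The CCAAT box, a 5-base motif also searched on both strands, occurred in 20 of the 27 (74.1%), against 42.8% of the tested genes. The lines below give 150 bases before to 30 bases after the start, 5′ to 3′ on the gene's strand, with the CHR core in capitals (as TTTGAA, or as TTCAAA where it lies on the other strand). They are shown for 3 genes with large negative differences and for Ttk, whose difference was positive.
Cenpf: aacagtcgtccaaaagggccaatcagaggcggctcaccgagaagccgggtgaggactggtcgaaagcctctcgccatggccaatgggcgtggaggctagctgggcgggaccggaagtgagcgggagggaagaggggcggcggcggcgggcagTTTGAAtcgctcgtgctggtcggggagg
Kif11: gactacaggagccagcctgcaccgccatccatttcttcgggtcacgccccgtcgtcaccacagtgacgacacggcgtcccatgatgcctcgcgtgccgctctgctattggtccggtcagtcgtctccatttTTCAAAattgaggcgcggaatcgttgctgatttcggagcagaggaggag
Mki67: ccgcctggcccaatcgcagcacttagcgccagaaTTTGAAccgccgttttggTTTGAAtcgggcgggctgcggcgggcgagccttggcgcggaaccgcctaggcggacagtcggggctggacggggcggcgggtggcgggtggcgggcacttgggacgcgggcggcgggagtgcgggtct
Ttk: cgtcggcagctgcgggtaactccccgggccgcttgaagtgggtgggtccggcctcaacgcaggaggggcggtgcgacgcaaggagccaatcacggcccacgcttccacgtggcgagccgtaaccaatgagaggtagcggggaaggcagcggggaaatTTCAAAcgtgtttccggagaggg
The windows are chr1:189688057-189688236 on the minus strand, chr19:37376232-37376411 on the plus strand, chr7:135716350-135716529 on the minus strand and chr9:83834539-83834718 on the plus strand. Mki67 holds the core at positions -116 and -98 from the start and Kif11 at -19, whereas in Cenpf and Ttk it begins 3 and 8 bases into the transcript. Ttk thus shares the letters with the genes that went the other way. A match in these letters is a description of the sequence and not a measured binding site.

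Genes of DNA replication were also lower in spinous LRC. Their median layer difference within nLRC was -0.38, against 0.38 for the mitosis list. Few single genes passed there, with 3 replication genes lower and 2 mitosis genes higher in the spinous layer. Over all genes tested 9.89% were lower and 9.61% higher in that contrast, so the 2 lists are not shown to differ in it. Of 30 tested, 24 were lower in spinous LRC, 0 differed in the basal layer, and 21 had a negative between-layer difference with none positive. The median was -0.98 in the spinous layer and 0.33 in the basal layer, where no gene passed edgeR's test, 8 had an unadjusted p under 0.05, all higher in LRC, and DESeq2 called 1 higher. Mcm3, a subunit of the replicative helicase, had 11.4, 12.2 and 19.6 CPM in SL LRC, 39.3, 38.4 and 32 CPM in SL nLRC, 85.1, 55.1 and 66.6 CPM in BL LRC and 65.5, 42.8 and 50.2 CPM in BL nLRC. The spinous groups did not overlap with each other, the basal groups did, and both spinous groups lay below both basal ones. The between-layer difference of Mcm3 was -1.74 ± 0.29 (adjusted p = 0.00246), that of the leading-strand polymerase gene Pole -1.84 ± 0.28, that of DNA ligase 1 (Lig1) -1.42 ± 0.22 and that of Mcm6 -1.38 ± 0.23. The E2F motif TTTGGCGC, searched on both strands in the same windows, occurred in 5 of 24 replication genes with an entry (20.8%), against 1.06% of the tested genes. A second E2F motif, TTTCCCGC, occurred in 4 of the 24 (16.7%, against 2.22%). The other searches made were AGGTCA, a nuclear receptor half-site, in 2 of 9 sebocyte genes (22.2%, against 15.5%), and the AP-1 motif TGACTCA in 3 of 22 granular genes (13.6%, against 4.88%). Mcm6 holds TTTGGCGC at -110 and -47 from the start (window chr1:128359676-128359855, minus strand, motif in capitals) and is shown as the replication gene with a pair of matches.
Mcm6: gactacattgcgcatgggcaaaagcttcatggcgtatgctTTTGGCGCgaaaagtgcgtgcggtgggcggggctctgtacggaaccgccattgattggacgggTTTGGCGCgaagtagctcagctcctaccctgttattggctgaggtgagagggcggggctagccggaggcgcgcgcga

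The layer comparison within LRC does not contrast the SL nLRC libraries, although they were part of the same fit. Within LRC the spinous layer was lower than the basal layer for 28 of the 30 mitosis and 28 of the 30 replication genes, with 1 mitosis gene higher, Ttk (medians -1.66 and -1.77). Over all genes this layer comparison called 1748 higher (11.2%) and 1855 lower (11.9%) in the spinous layer. Within nLRC it called 1493 higher (9.61%) and 1537 lower (9.89%), among them 0 mitosis genes lower and 2 higher, and 3 replication genes lower. The summed level of the mitosis list was 202 to 293 CPM in SL LRC, 637 to 1129 CPM in SL nLRC, 536 to 668 CPM in BL LRC and 530 to 713 CPM in BL nLRC. Only the SL LRC range stood clear of the others. Among 11 genes that brake the cell cycle, 2 were positive and 2 negative, with 0 to 3 positive and 1 or 2 negative when single libraries were left out. Over all genes tested 8.79% were positive and 8.16% negative between layers, so these few calls do not set the list apart. Cdkn2b, an inhibitor of the kinases that start the cycle, had 28, 33.6 and 20.8 CPM in SL LRC, 8.88, 6.42 and 5.23 CPM in SL nLRC, 4.51, 6.49 and 6.78 CPM in BL LRC and 4.1, 5.07 and 3.05 CPM in BL nLRC. SL LRC was above all other libraries, with a between-layer difference of 1.42 ± 0.34 (adjusted p = 0.0146). Without the library BL nLRC 2 it missed the threshold (difference 1.32, adjusted p = 0.0504).

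**Figure D2:**
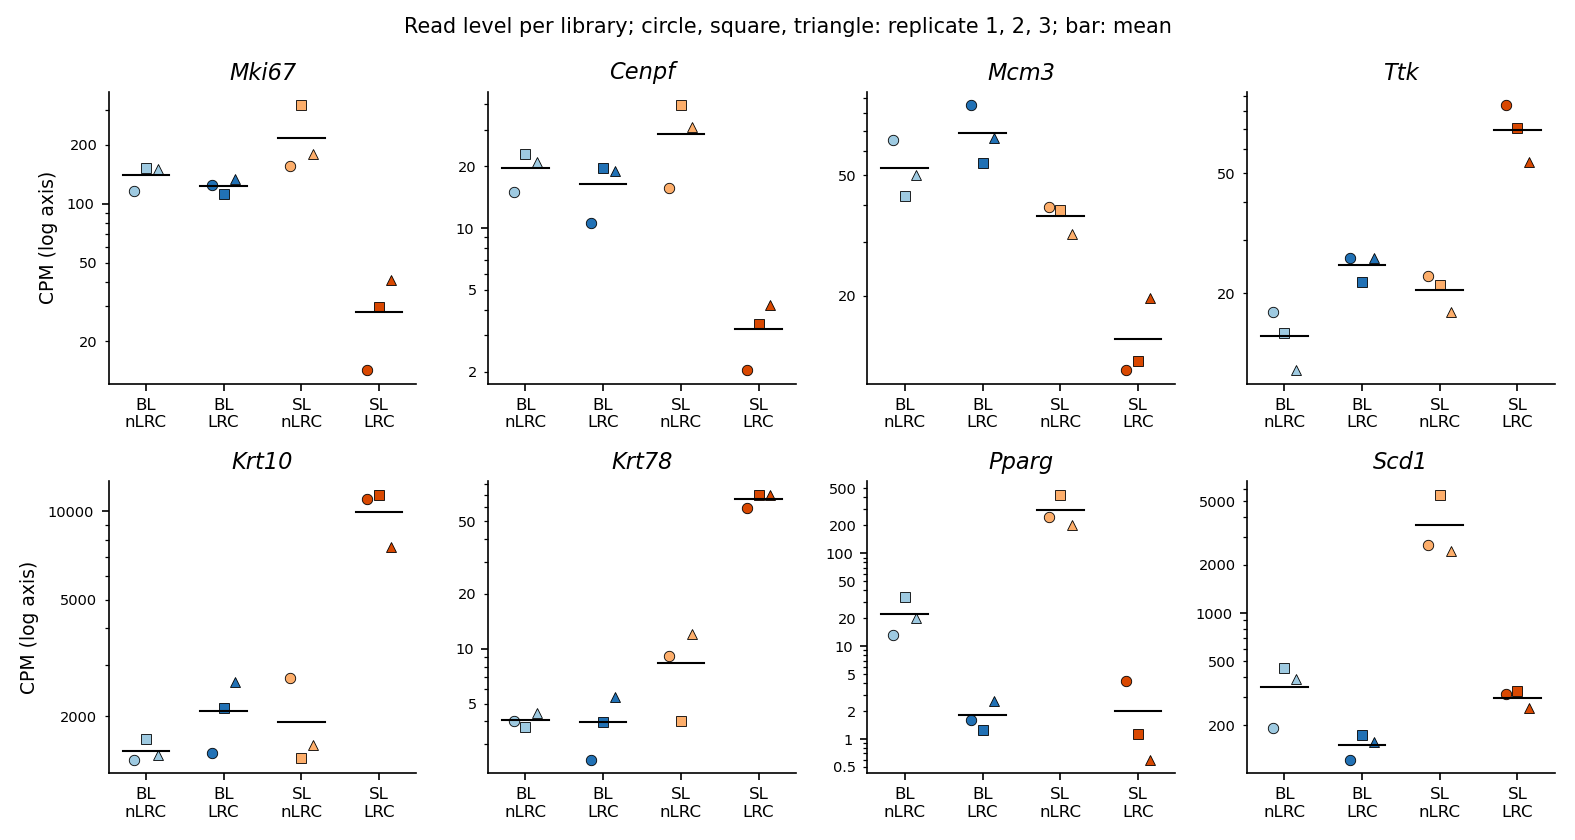
Read level in CPM on a log axis in each of the 12 libraries for genes of division (Mki67, Cenpf, Mcm3, Ttk), differentiation (Krt10, Krt78) and sebocytes (Pparg, Scd1), with bars at the group means. SL LRC is low for Mki67, Cenpf and Mcm3 (for Mcm3 SL nLRC is also below the basal libraries) and high for Ttk, Krt10 and Krt78, while SL nLRC stands highest for Pparg and Scd1.

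Spinous differentiation genes showed the reverse. Of 20 tested, 18 were higher and 1 lower in spinous LRC, 0 differed in the basal layer, and 17 had a positive between-layer difference with none negative (median 1.41, from 1.62 in the spinous and 0.13 in the basal layer). In the basal layer 4 had an unadjusted p under 0.05, all higher in LRC, and DESeq2 called 1. Krt1, the partner of keratin 10, had 4511, 4024 and 2441 CPM in SL LRC, 1125, 509 and 479.9 CPM in SL nLRC, 455, 625 and 587 CPM in BL LRC and 542, 582 and 377 CPM in BL nLRC. All SL LRC values were above all others, and the 3 remaining groups overlapped. The difference was 2.19 ± 0.37 for Krt1 (adjusted p = 0.00283) and 1.92 ± 0.38 for Krt10 (adjusted p = 0.00538). Suprabasin (Sbsn), a secreted protein of suprabasal cells, had 346, 375 and 336 CPM in SL LRC, 104, 100.2 and 108 CPM in SL nLRC, 32.2, 58.8 and 62.1 CPM in BL LRC and 35.7, 54.1 and 52.1 CPM in BL nLRC. Unlike the keratins, Sbsn in SL nLRC was above every basal library, and its difference of 1.66 ± 0.24 (adjusted p = 0.00136) came on top of a layer difference within nLRC of 1.17 ± 0.17. Krtdap, another secreted differentiation product, differed by 1.66 ± 0.27.

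Genes of the granular layer and the lipid barrier moved the same way, less widely. Of 23 tested, 10 were higher and 1 lower in spinous LRC, 2 were higher in basal LRC, and 9 had a positive between-layer difference with none negative (median 0.78). The 9 became 5 without BL LRC 1, BL LRC 2, BL nLRC 2 or SL LRC 2, and 4 without the replicate block. Spink5, the inhibitor of the kallikreins that shed corneocytes, passed in both layers. It had 121, 142 and 128 CPM in SL LRC, 37.1, 30.5 and 33.6 CPM in SL nLRC, 47, 39.6 and 48.5 CPM in BL LRC and 25.5, 26.9 and 23.1 CPM in BL nLRC. LRC stood above nLRC without overlap in each layer, by 1.96 ± 0.12 in the spinous and 0.84 ± 0.12 in the basal layer, a difference of 1.12 ± 0.17 (adjusted p = 0.00183). Elovl4, which elongates the very long fatty acids of barrier ceramides, differed by 1.52 ± 0.30, the ceramide synthase gene Cers3 by 1.45 ± 0.33 and Casp14, the caspase of cornification, by 1.36 ± 0.31. Cers3 differed from the other 2 in its layer pattern. In SL nLRC it had 44.1, 20.1 and 37.4 CPM, below the 61.1, 82.3 and 64.1 CPM of BL LRC and the 63.2, 70.3 and 54.1 CPM of BL nLRC, and SL LRC had 98.6, 119.6 and 91.1 CPM.

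Within LRC, 20 of the 20 spinous genes were higher in the spinous than in the basal layer (median 1.67), and within nLRC 9 were (median 0.43), with none lower in either class. Of the 23 granular genes, 14 were higher and 1 lower in the spinous layer within LRC, and 9 higher and 3 lower within nLRC. The summed level of the spinous list was 24811 to 35378 CPM in SL LRC, 6396 to 10086 CPM in SL nLRC, 6148 to 9068 CPM in BL LRC and 6205 to 7165 CPM in BL nLRC. SL LRC was clear of the other groups, and these overlapped. The Skint genes, which encode butyrophilin-like surface proteins of keratinocytes involved in the selection of epidermal γδ T cells, went with the differentiation lists. Of 11 tested, 10 were higher in spinous and 2 in basal LRC, and 8 had a positive between-layer difference (median 1.53), 3 without the block. Skint9 had 300.5, 232 and 230.2 CPM in SL LRC, 71, 29.7 and 33.1 CPM in SL nLRC, 16.9, 14.1 and 19.6 CPM in BL LRC and 19.3, 9.5 and 9.77 CPM in BL nLRC, a difference of 2.13 ± 0.30 (adjusted p = 0.00117). SL LRC was highest, SL nLRC came next, and the basal classes overlapped. Skint10 differed by 1.96 ± 0.31, Skint11 by 1.57 ± 0.23 and Skint1 by 1.14 ± 0.20. Skint1 and Skint11 were below the basal level in SL nLRC, with layer differences within nLRC of -0.60 ± 0.15 and -1.23 ± 0.17. The Skint genes are related members of 1 family, and how the authors' counting divided any shared reads is not given, so single members are uncertain.

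**Figure D3:**
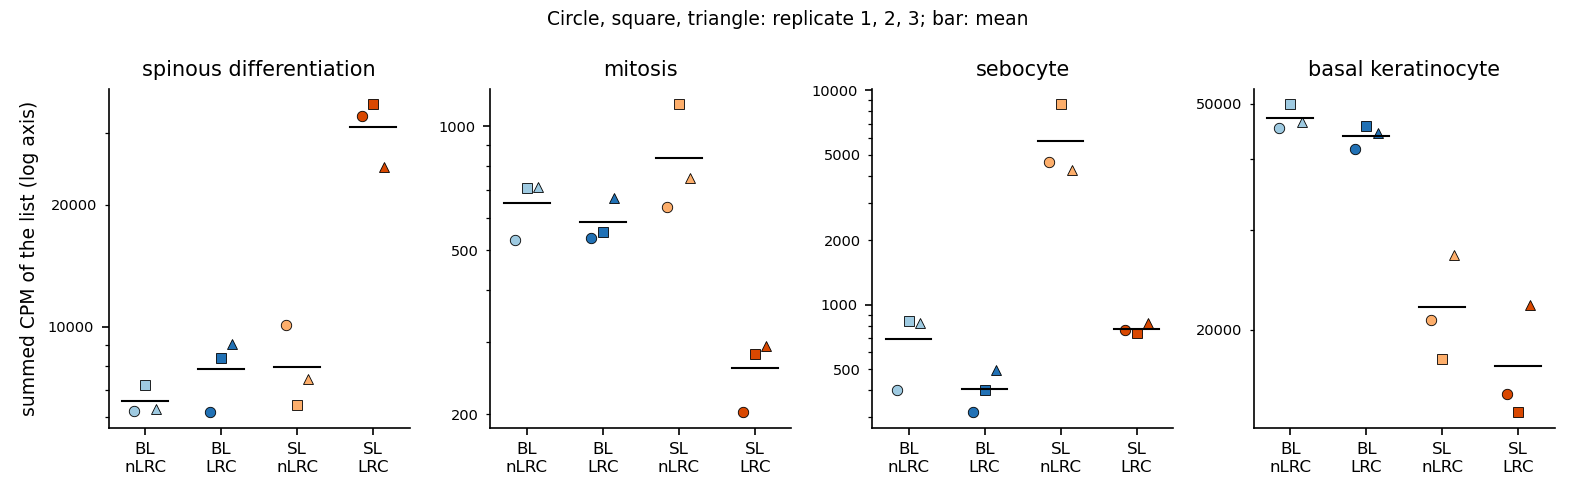
Summed CPM of 4 gene lists on a log axis in each of the 12 libraries, with bars at the group means. The spinous list is high and the mitosis list low in SL LRC alone, the sebocyte list is highest in SL nLRC (4246 to 8598 CPM), and the basal list separates the layers.

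Sebocyte genes were lower in LRC in both layers, and by more in the spinous layer. Of 12 tested, 11 were lower in spinous and 9 in basal LRC, and 7 had a negative between-layer difference (median -2.60, from -5.47 in the spinous and -2.76 in the basal layer). Pparg, the nuclear receptor that directs sebocyte maturation (chr6:115360951-115490399), had 247, 430.3 and 200.4 CPM in SL nLRC, 13.2, 33.5 and 20.1 CPM in BL nLRC, 4.25, 1.14 and 0.602 CPM in SL LRC and 1.59, 1.27 and 2.59 CPM in BL LRC. The nLRC groups lay above the LRC groups in each layer, SL nLRC by far the highest, and the LRC groups overlapped. Its difference was -3.50 ± 0.78 (adjusted p = 0.0099). Scd1, the stearoyl-CoA desaturase of sebum synthesis, had 2657, 5506 and 2443 CPM in SL nLRC, 192, 454 and 389 CPM in BL nLRC, 312, 325 and 255 CPM in SL LRC and 122, 173 and 157 CPM in BL LRC, a difference of -2.33 ± 0.34 (adjusted p = 0.00147). SL nLRC was again clear of all other groups. The lipid droplet gene Plin2 differed by -2.72 ± 0.33, the fatty acyl-CoA reductase gene Far2 by -2.95 ± 0.60 and the glutathione transferase gene Mgst1 by -3.15 ± 0.68. Within LRC 2 of the 12 sebocyte genes were higher in the spinous layer, and within nLRC 11 were. In these sorted pools, more sebocytes and more sebocyte RNA per cell cannot be told apart.

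Lipid synthesis outside the sebocyte list went the same way. Of 24 genes of cholesterol synthesis and its control, 17 were lower and 4 higher in spinous LRC and 2 lower in basal LRC, and 15 had a negative and 3 a positive between-layer difference (median -1.13). The 15 became 9 without SL LRC 2 and 5 without the replicate block. Acat2, which joins acetyl-CoA units at the head of the pathway, had 108, 198 and 88.9 CPM in SL nLRC, 18.1, 17.6 and 13.4 CPM in SL LRC, 16.1, 22.7 and 18.9 CPM in BL nLRC and 13.1, 14.8 and 16.6 CPM in BL LRC. SL nLRC stood apart from the other groups, with a difference of -2.59 ± 0.30 (adjusted p = 0.000517). The between-layer difference was -2.05 ± 0.34 for the sterol sensor gene Insig1 and -1.90 ± 0.33 for the isomerase gene Idi1. Of 26 genes of fatty acid metabolism, 13 were negative and 2 positive (median -0.72). The fatty acid synthase gene Fasn differed by -1.42 ± 0.20 and the acyl-CoA synthetase gene Acsl3 by -1.49 ± 0.23, whereas its relative Acsl1 differed by 1.64 ± 0.23, with 557, 535 and 431 CPM in SL LRC against 182, 94.5 and 132 CPM in SL nLRC, 181, 177 and 197 CPM in BL LRC and 169, 145 and 144 CPM in BL nLRC. Acsl1 and Acsl3 encode enzymes that activate long-chain fatty acids, and they differed in opposite directions. Of 24 nuclear genes of oxidative phosphorylation, 22 were lower in spinous LRC, 0 passed in the basal layer (7 at an unadjusted p under 0.05, 3 by DESeq2, all lower) and 14 were negative between layers (median -0.67), among them Ndufv1 of complex I at -1.11 ± 0.16 and the ATP synthase gene Atp5b at -0.96 ± 0.16. The 14 negative oxidative phosphorylation genes became 6 without BL nLRC 2, 7 without SL LRC 2, 9 without BL LRC 3 or BL nLRC 3, and 5 without the block. Within LRC the spinous layer was higher than the basal layer for 15 and lower for 0 of the 24 cholesterol genes, higher for 15 and lower for 1 of the 26 fatty acid genes, and lower for 2 and higher for 0 of the 24 oxidative phosphorylation genes. Within nLRC 21, 19 and 12 genes of these lists were higher in the spinous layer, and 1, 0 and 0 lower. The sebocyte sum moved with these 3 lists, being highest in SL nLRC, and its part in their differences was not tested.

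**Figure D4:**
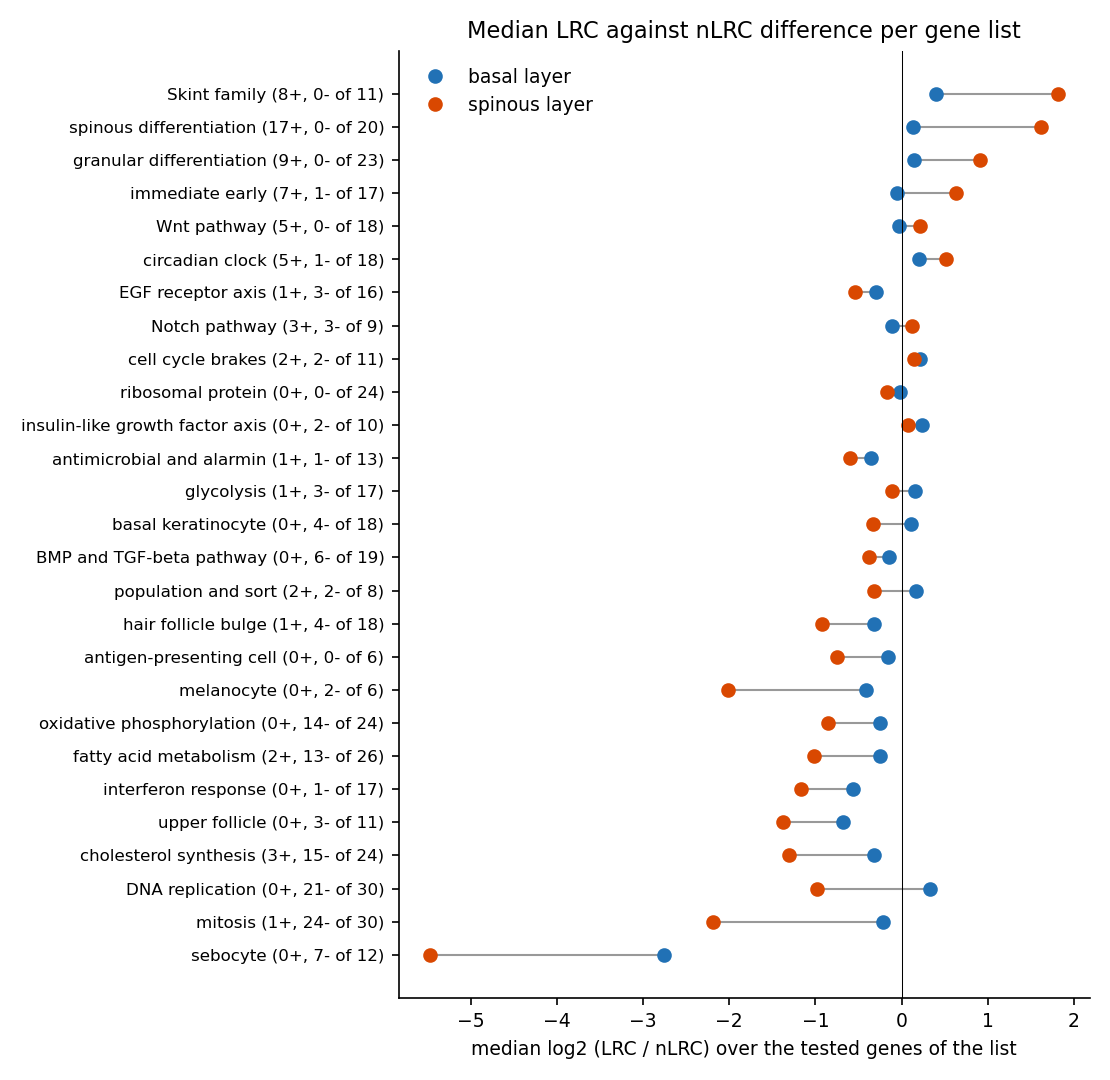
Median log2 difference between LRC and nLRC over the tested genes of each list with at least 5 of them, in the basal (blue) and the spinous layer (orange), ordered by the median between-layer difference, with the numbers of positive (+) and negative (-) between-layer calls. The sebocyte median moves from -2.76 to -5.47 and the mitosis median from -0.22 to -2.19, while the spinous list moves from 0.13 to 1.62.

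Basal and follicle genes gave fewer calls, to be read beside 8.79% positive and 8.16% negative over all genes tested. Of 18 basal keratinocyte genes, 4 were negative and none positive between layers (median -0.28), and 17 were lower in the spinous layer within each label class. The 4 became 1 without BL LRC 1, SL LRC 1, BL LRC 2, SL LRC 2, BL nLRC 3, SL nLRC 3 or the block, and 2 without BL nLRC 2. Itgb1, the β1 integrin that ties basal cells to the basement membrane, had 42.7, 44.3 and 75 CPM in SL LRC, 124, 174 and 165 CPM in SL nLRC, 174, 197 and 170.0 CPM in BL LRC and 179, 207 and 203 CPM in BL nLRC. SL LRC was lowest without overlap, with a difference of -1.41 ± 0.23 (adjusted p = 0.00227). Krt14 differed by -1.06 ± 0.27 (adjusted p = 0.0207), a call that was lost without BL LRC 1 or 2, SL LRC 1 or 2, BL nLRC 3 or SL nLRC 3 (differences -1.04 to -0.86, adjusted p 0.0546 to 0.0639). Its partner Krt5, the keratin whose promoter drives the label, differed by -0.40 ± 0.26 and Itga6, the α6 integrin, by -0.24 ± 0.18, neither past the test (adjusted p = 0.34 and 0.394). Of 18 hair follicle bulge genes 4 were negative and 1 positive (median -0.49), led by the matrix protein gene Npnt, which had 9.77, 13.1 and 27.9 CPM in SL LRC against 52.9 to 93.1 CPM in the other libraries. The 4 negative bulge genes became 1 without SL LRC 1, BL nLRC 2, SL LRC 2 or BL nLRC 3 and 2 without BL LRC 1, BL LRC 2, SL nLRC 3 or the block. Of 11 upper follicle genes 3 were negative (median -0.81; 6 without SL LRC 2 and 1 without the block), among them Lrig1, a stem cell marker that restrains EGF receptor signalling, at -0.81 ± 0.18, and Plet1, a surface protein of the upper follicle, at -1.64 ± 0.29. The summed level of the upper follicle list was 2574 to 3128 CPM in SL nLRC and 829 to 1988 CPM in SL LRC, against 556 to 971 CPM in the basal libraries, so that SL nLRC was clear of the basal groups and SL LRC was not. Its part in the lists above was not tested.

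The genes that mark the label classes behaved unequally. Slc1a3, a glutamate and aspartate transporter known as a marker of fast-cycling epidermal cells (chr15:8634124-8710764), had 75.5, 134 and 55.9 CPM in SL nLRC, 2.79, 5.48 and 8.36 CPM in SL LRC, 26, 29.7 and 20.6 CPM in BL nLRC and 18.5, 14.3 and 19.5 CPM in BL LRC. It was lower in LRC in every pair, by 3.97 ± 0.37 log2 units in the spinous layer, and in the basal layer its difference of -0.53 ± 0.33 did not pass the test (adjusted p = 0.524). The between-layer difference was -3.44 ± 0.48 (adjusted p = 0.00122). Igfbp3, which binds insulin-like growth factors, had 111, 78.3 and 184 CPM in SL LRC, 8.93, 4.62 and 20.1 CPM in SL nLRC, 368, 217 and 318 CPM in BL LRC and 37.1, 24.3 and 38.6 CPM in BL nLRC. LRC was above nLRC without overlap in each layer, by 3.55 ± 0.26 in the spinous and 3.19 ± 0.24 in the basal layer. The layers differed by 0.37 ± 0.33, little more than the SE and not past the test (adjusted p = 0.508), which does not show that they were equal. Igfbp4 of the same family was lower in LRC in both layers, by 4.66 ± 0.24 and 2.12 ± 0.22 log2 units, with 429.7, 563 and 527 CPM in SL nLRC and 46.6, 94.4 and 119 CPM in BL nLRC. That gave a between-layer difference of -2.54 ± 0.30 (adjusted p = 0.000579). Of 10 genes of this axis tested, the only other call was the insulin receptor substrate gene Irs2 at -1.03 ± 0.24. Over all genes tested 17% were called between layers, so the number of calls does not set this list apart.

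Signalling lists were split, and their counts are to be read beside 8.79% positive and 8.16% negative over all genes tested. Of 18 Wnt pathway genes 5 were positive and none negative (median 0.38). The 5 became 2 without BL LRC 1, BL nLRC 2, BL nLRC 3 or SL LRC 2, 3 without BL nLRC 1, BL LRC 3 (with 1 negative), SL LRC 3, SL nLRC 2 or SL nLRC 3, and 0 without the block. The ligand gene Wnt7b had 306, 286 and 232 CPM in SL LRC, 134, 53.1 and 85.9 CPM in SL nLRC, 358, 298 and 214 CPM in BL LRC and 267, 243 and 184 CPM in BL nLRC. Here the group apart was SL nLRC, which was below all other libraries, and the difference was 1.32 ± 0.29 (adjusted p = 0.00925). The ligand gene Wnt3, also with its lowest group mean in SL nLRC, differed by 1.46 ± 0.31. Of 9 Notch pathway genes 3 were positive and 3 negative, the positive ones becoming 1 without BL LRC 1, SL LRC 1, BL nLRC 2, SL LRC 2, SL nLRC 2 or BL nLRC 3 and also 1 without the block. The ligand gene Jag2 had 104, 115 and 165 CPM in SL LRC, 475, 396 and 459 CPM in SL nLRC, 576, 584 and 455 CPM in BL LRC and 651, 727 and 646 CPM in BL nLRC, SL LRC being lowest without overlap, with a difference of -1.48 ± 0.24 (adjusted p = 0.00222). Lfng, which modifies the receptors, differed by -1.67 ± 0.34, and the receptor gene Notch2 by 1.07 ± 0.19. Ligand and receptor thus went in opposite directions. Of 19 BMP and TGF-β genes 6 were negative and none positive (median -0.32), becoming 3 negative without BL nLRC 2 or SL LRC 2 and 2 without the block, with the latent TGF-β binding protein gene Ltbp3 at -1.47 ± 0.18 and the BMP target Id2 at -1.82 ± 0.27. Of 16 genes of the EGF receptor axis 3 were negative, among them Dusp4, and 1 was positive, the receptor gene Erbb2 at 1.05 ± 0.20. The 3 negative genes became 1 without BL nLRC 2, and the 1 positive became 4 without SL LRC 3 and 2 without BL nLRC 1, SL nLRC 1, BL LRC 2 or SL nLRC 3.

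Calls in the remaining lists depended on single libraries or were few, beside 8.79% positive and 8.16% negative over all genes tested. Of 17 immediate early genes 7 were positive and 1 negative (median 0.74), of which 0 were positive without BL LRC 1, BL nLRC 2, SL LRC 2 or the block and 1 without SL LRC 1, BL LRC 3 or BL nLRC 3. Of 18 clock genes 5 were positive and 1 negative. The 5 became 1 without BL LRC 1 or the block, 2 without BL nLRC 2, 3 without BL nLRC 1, BL LRC 2, SL LRC 2, SL nLRC 2, BL LRC 3 or BL nLRC 3, and 8 without SL nLRC 1. Hlf, a clock output factor, had 385, 331 and 419 CPM in SL LRC, 121, 60.4 and 91.7 CPM in SL nLRC, 255, 288 and 307 CPM in BL LRC and 168, 179 and 175 CPM in BL nLRC, so that SL nLRC was lowest and SL LRC highest, with a difference of 1.37 ± 0.25 (adjusted p = 0.0041). Bhlhe41, a repressor in the clock, was the negative one, at -3.31 ± 0.45 (adjusted p = 0.00102). Its CPM were 24.8, 27.2 and 16.4 in SL nLRC, 3.49, 2.54 and 3.14 in SL LRC, 11, 9.6 and 6.34 in BL LRC and 3.77, 7.85 and 8.16 in BL nLRC. Of 17 genes of glycolysis and hypoxia 1 was positive and 3 negative, led by the vascular growth factor gene Vegfa at -1.29 ± 0.24, which rose in basal LRC by 0.93 ± 0.17 and did not pass in the spinous layer. The 3 negative genes of this list became 1 without BL nLRC 2 or BL LRC 3 and 0 without the block. Of 17 interferon genes 1 was negative (0 to 4 when single libraries were left out), of 13 antimicrobial genes 1 was positive, the interleukin 1 receptor antagonist gene Il1rn at 1.31 ± 0.26, and 1 negative. None of 24 ribosomal protein genes passed in either direction (median -0.12). None had an unadjusted p under 0.05, and DESeq2 also called 0.

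Markers of other cell types were mostly low. Of the melanocyte genes 2 of 6 were negative (1 to 3 when single libraries were left out), one being Mitf at -1.08 ± 0.15, and the summed level of that list was 118 to 178 CPM in SL nLRC and 60.6 to 118 CPM in the other groups. Most of that sum was Mitf in every library. Dct had 88, 39 and 122 reads in SL nLRC and 0 to 58 in the other libraries, and Kit 42, 20 and 43 against 1 to 18. Pmel did not follow, with 100, 61 and 107 reads in SL nLRC and 183, 80 and 63 in SL LRC. Tyr, Tyrp1, Mlana and Sox10 had at most 42 reads in any library. None of 6 antigen-presenting cell, 3 T cell, 1 fibroblast or 1 endothelial gene tested passed between layers in edgeR or DESeq2, and 0 had an unadjusted p under 0.05 there. Within the spinous layer 1 antigen-presenting cell and 1 T cell gene were lower in LRC. In the basal layer DESeq2 called 1 T cell gene lower in LRC. Between layers 1 of 2 red cell genes was positive (0 without any one of 8 libraries), and no Merkel cell gene passed the low-count filter. Antigen-presenting cell genes summed to 210 CPM in SL nLRC replicate 2, above the 12.5 to 67.6 CPM of the other 11 libraries. The sum of the T cell list moved with the layer through Thy1, a surface protein that T cells share with other cells, which had 11.7, 13.8 and 25.5 CPM in SL LRC, 31.5, 36.5 and 41.8 CPM in SL nLRC, 70.5, 86.3 and 75.7 CPM in BL LRC and 108, 129 and 121 CPM in BL nLRC. The T cell receptor genes of the list, Cd3d, Cd3e, Cd3g and Trdc, had 0 to 35 reads in each library. Atoh1, which defines Merkel cells, had 0 reads in every library.

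The 15 largest negative differences, taken among genes whose log2 CPM averaged 3 or more, included genes of several kinds. Slc16a1, a monocarboxylate transporter that carries lactate (chr3:104638668-104658462), had the smallest p of all 15542 genes. It had 5.07, 9.15 and 4.95 CPM in SL LRC, 102, 161 and 92.1 CPM in SL nLRC, 12.9, 20.2 and 12.6 CPM in BL LRC and 16, 29.4 and 18.9 CPM in BL nLRC. SL nLRC was highest and SL LRC lowest without overlap, the basal groups overlapped, and the difference was -3.74 ± 0.16 (adjusted p = 4.34e-07), made of -3.99, -3.58 and -3.61 in replicates 1 to 3. Acoxl, related to the peroxisomal acyl-CoA oxidases, had the largest difference at -3.95 ± 0.70, followed by Dusp4, a phosphatase of MAP kinases, at -3.91 ± 0.90 and Angptl4, an inhibitor of lipoprotein lipase, at -3.87 ± 0.33. The Dusp4 call was lost without the library BL LRC 3 (difference -3.36, adjusted p = 0.065). Angptl4 had 1.21, 2.81 and 3.95 CPM in SL LRC, 78.3, 99.6 and 121 CPM in SL nLRC, 3.94, 5.86 and 13.6 CPM in BL LRC and 10.4, 19.2 and 35.6 CPM in BL nLRC. The adhesion gene Clmp (-3.74 ± 0.66), the ectodysplasin receptor gene Edar (-3.63 ± 0.53), Lhfp (-3.58 ± 0.46), the semaphorin gene Sema3e (-3.42 ± 0.25), Tmem56 (-3.38 ± 0.32), the nuclear receptor coactivator gene Ncoa7 (-3.25 ± 0.37), the ceramide synthase gene Cers4 (-3.17 ± 0.62) and Paqr7 (-3.16 ± 0.32) completed the set with Pparg, Slc1a3 and Bhlhe41. Cers4 of this set had 315 to 617 CPM in SL nLRC and 1 to 5.84 CPM in SL LRC, whereas Cers3 differed in the other direction. Without the replicate block the calls of Acoxl and Edar were lost.

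The largest of the 15 positive differences was that of Krt78. Krt78, a type II keratin (chr15:101946001-101954287), had 59.1, 70.1 and 69.6 CPM in SL LRC, 9.11, 4.04 and 12 CPM in SL nLRC, 2.48, 3.96 and 5.48 CPM in BL LRC and 4.04, 3.75 and 4.43 CPM in BL nLRC. SL LRC was clear of the rest and the difference was 3.10 ± 0.41 (adjusted p = 0.000883). The glycine decarboxylase gene Gldc followed at 2.68 ± 0.45, with 38.2, 42.1 and 35.2 CPM in SL LRC and at most 8.01 CPM in any other library. Also in the set were the lipoxygenase gene Alox12 at 2.22 ± 0.44, the cyclooxygenase gene Ptgs1 at 2.32 ± 0.33 and the cytochrome P450 gene Cyp4f39 at 2.35 ± 0.38. Alox12 had 39.6, 39.7 and 33.7 CPM in SL LRC and 8.82, 5.71 and 5.84 CPM in SL nLRC, against 1.65 to 4.11 CPM in the basal libraries. The others were Ano7 (2.60 ± 0.48), the nuclease gene Dnase1l3 (2.42 ± 0.37), Plekha6 (2.35 ± 0.38), the collagen receptor gene Ddr2 (2.35 ± 0.39), Kctd12 (2.31 ± 0.28), Dock6 (2.29 ± 0.28), the acetylcholinesterase gene Ache (2.27 ± 0.37), Serpinb3b (2.21 ± 0.56), the kinase gene Tnik (2.21 ± 0.37) and the glycosyltransferase gene B4galnt3 (2.21 ± 0.32). Without the library BL LRC 1, Serpinb3b missed the threshold (difference 2.01, adjusted p = 0.0636), and its call was also lost without the replicate block. The Tnik difference was made of -0.93 ± 0.27 in the basal layer, not past the test (adjusted p = 0.105), and 1.28 ± 0.26 in the spinous layer.

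**Figure D5:**
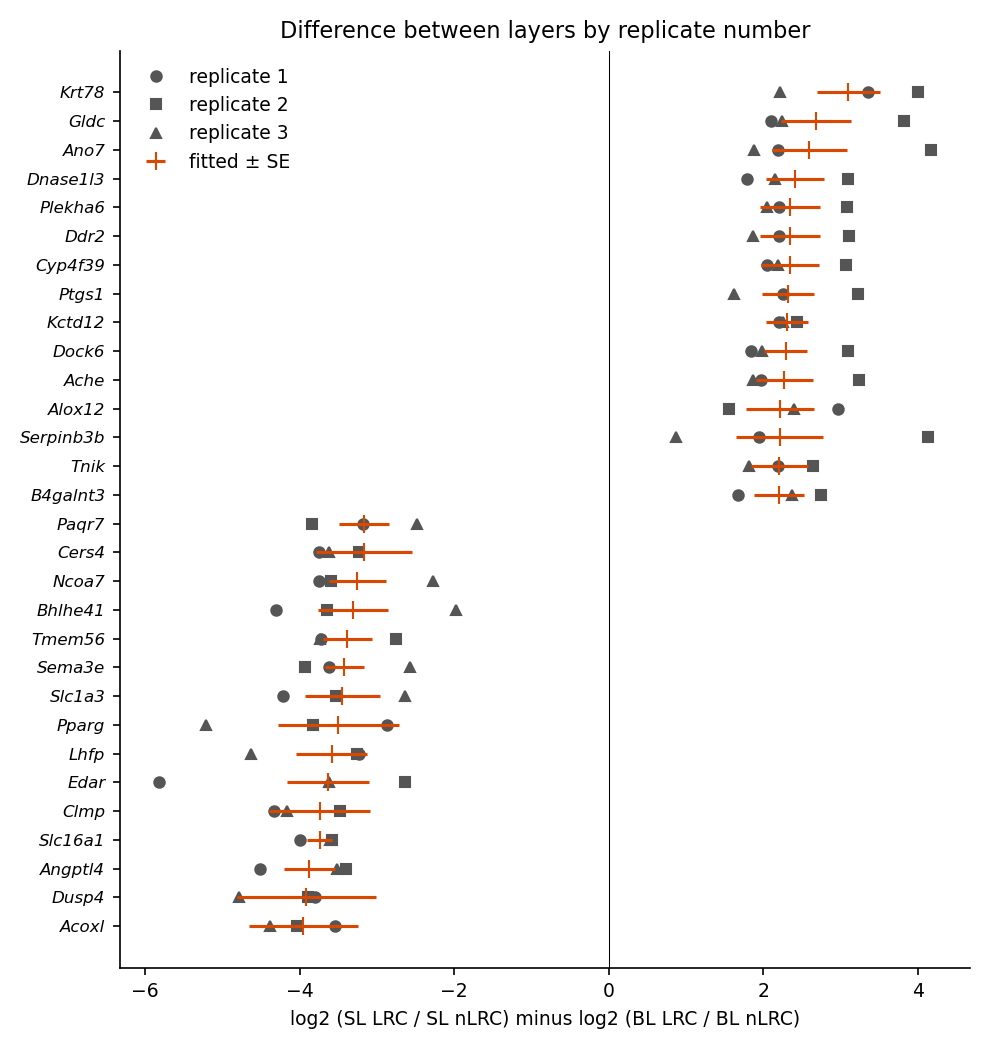
Between-layer difference of the 15 largest negative and 15 largest positive genes on the log2 scale, computed within each replicate number (circles, squares and triangles) and as fitted with its SE (orange). Every replicate value lies on the side of 0 of the fitted value, which the rule for naming these genes required, and Slc16a1 spans -3.99 to -3.58.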

How the data were processed

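RNA was measured in 12 back skin libraries. Per the file headers, the authors' table of each library gives per gene the count of total gene reads, its TPM and its RPKM. Build mm10 is named in the submitters' processing notes, while for the aligner, the counting program and whether counting used strand the sources used here give nothing. The deposited counts hold intron and exon reads, and the RPKM the authors deposited served only to estimate intron shares. The TPM the authors deposited served as a check.

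In R 4.3.3, edgeR 4.0.16 fitted the counts (quasi-likelihood test) on 4 group means plus the replicate number, after TMM scaling and filterByExpr (minimum count 10, minimum total 15), leaving 6 residual degrees of freedom, with Benjamini-Hochberg adjusted p under 0.05. The SE is the log2 difference over the square root of F. No label says what the replicate number stands for. Deviations from the group means correlated at 0.126 to 0.367 in the 18 pairs of libraries of the same number and at -0.297 to 0.00912 in the other 36 pairs, so the numbers were taken to pair the libraries. All replicates of a group differed beyond sampling noise, the smallest chi-square over its degrees of freedom being 21.1.

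The samples and 32 gene lists (503 genes) were chosen with earlier results of these data known, so no list's direction is independent support. Genes named are the 15 largest differences each way with 1 sign in all 3 replicate numbers, up to 4 genes per list by p, and label and layer markers, without predicted, mitochondrial and ribosomal genes, and the text prints a part (some are not reported here). Alternatives were the fit without the block, a block per layer, all 18 back skin libraries, DESeq2 1.42.0, its median-of-ratios scaling within edgeR, no low-count filter, limma 3.58.1 on log2(TPM + 1) with TPM of at least 1 in 3 libraries, and leaving out each library or number. The layer contrasts within a label class and the list counts under alternatives were added after seeing the data. The fit was tested on simulated data. Gene positions are from GENCODE M21 (51872 of 53715 names matched). Dock6, Far2, Lig1, Ltbp3, Erbb2 and Lrig1 overlap a protein-coding gene on the other strand and Ncoa7, Serpinb3b and Acsl3 one on their own, so their counts are uncertain. Cers4, Gldc, Kif11, Wnt7b, Plet1, Atp5b and Sbsn overlap genes of other kinds, and the same holds for them. Overlaps with genes of Gm or Rik names and with microRNA genes were not counted.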

Additional observations from a re-analysis of the deposited data

Results flagged for a closer look

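The spinous and basal differences between LRC and nLRC were themselves unequal by the between-layer test for 1366 genes in the positive and 1269 in the negative direction. Of the 85 called genes named in the text, 8 passed that test in all 23 alternatives and are listed here for a closer look. Sbsn (1.66) and B4galnt3 (2.21) differed in the positive direction, which in both came with a rise in spinous LRC. In the negative direction were Slc16a1 (-3.74), Bhlhe41 (-3.31), Ncoa7 (-3.25), Plin2 (-2.72), Acat2 (-2.59) and Igfbp4 (-2.54). Groups of 3 libraries are too small for a check of single outlying values.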

How the results depend on the processing

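Numbers of calls depended on how the spread was estimated. The 85 called genes named in the text kept their sign in all 23 alternatives, which refit the same libraries or a part of them. Most of these genes were named for a small p or a large difference, so the kept sign is no independent support for their direction. Without the replicate block, the paired fit being the one reported, the between-layer test called 1106 genes and the basal test 98, all among the genes called with it. With all 18 back skin samples, which add granular layer and bulge libraries, the between-layer, spinous and basal tests called 386, 3385 and 95 genes with the block and 65 (17 positive, 48 negative), 2571 and 39 without it, and 77 of the 85 named calls were lost in the latter. With the block 53 of the 85 were lost, and 16 in the fit of the 12 libraries without it. The basal count was 785 with DESeq2, 1054 without the low-count filter and 169 with limma on log2(TPM + 1). A block within each layer called 2700 genes between layers, and 2468 of these were among the 2635. Leaving out a library or a replicate number gave 939 to 2752 genes between layers, 3963 to 6216 in the spinous and 168 to 599 in the basal layer. The between-layer count moved by over 1.5 times without BL LRC 1 (1597), BL nLRC 2 (1559), SL LRC 2 (1689) or replicate number 1 (1535), 2 (939) or 3 (1390). The basal count did so without BL LRC 2 (210), BL nLRC 2 (210), BL LRC 3 (198), BL nLRC 3 (179), SL nLRC 2 (599) or number 1 (196), 2 (195) or 3 (168), and the spinous count without number 2 (3963). The cause was not tested, beyond the fewer samples in the last fits. Leaving out single libraries left 22 to 28 negative mitosis, 16 to 26 negative replication and 15 to 18 positive spinous genes. It left 6 to 8 negative sebocyte, 11 to 14 negative fatty acid and 7 to 9 positive Skint genes. The fit without the block gave 18, 17, 12, 6, 10 and 3 for these lists in that order. The fit of all 18 back skin libraries with the block gave 4, 0, 6, 1, 3 and 2. It also gave 1 positive granular and 0 negative oxidative phosphorylation genes. Without replicate number 2, 20 negative mitosis, 8 negative replication and 11 positive spinous genes remained. Leaving out 1 library, or the block, moved the counts of the granular, cholesterol, oxidative phosphorylation, basal, bulge, upper follicle, Wnt, BMP, immediate early and clock lists by over 1.5 times, with the values beside each. List medians on TPM kept their sign in the first 4 lists, for mitosis at -1.62 and for sebocytes at -3.05. Scaling moved the median of all genes by less than 0.1.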
